A study of Mus musculus with 65 samples.

Results

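The genes described here are 38 named genes of the response to low oxygen and of glycolysis, chosen by name. They were followed through mouse mammary glands after low-dose ionizing radiation and through p53-null mammary tumours that grew in irradiated or sham-irradiated hosts. Of the 38 genes, 36 had a probe set that the array annotation assigns to 1 gene, out of 18193 genes measured. For each gene the brightest of its probe sets in that tissue was taken. Gpi1 and Eno1 are not analysed here. After a filter on dim genes, 32 members were tested in glands and 34 in tumours, of 10916 genes tested in each tissue. Slc16a3, Ankrd37, Eno2 and Car9 lay under the filter in glands, and Eno2 and Pgam2 lay under it in tumours.

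When oxygen is scarce, prolyl hydroxylases of the EGLN family stop marking the HIF alpha subunits for destruction, and the stabilised subunits switch on genes with a short core motif in their control regions. Those targets include glucose transporters, most enzymes that turn glucose into lactate, and signals such as the vessel growth factor gene Vegfa. Several glycolytic steps are also run by isoenzymes that skeletal muscle makes in large amounts, so a piece of muscle in a dissected gland carries those transcripts with it.

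Affymetrix arrays measured total RNA of 17 glands and 48 tumours. Glands came from BALB/c mice, 10 weeks old, either Tgfb1 wild-type or Tgfb1 heterozygous littermates, and all mice, sham controls included, received estrogen and progesterone 2 days before exposure to 10 cGy or sham exposure. The rear portion of the inguinal gland, freed of its lymph node, was extracted. The wild-type groups held 3 sham glands taken after 1 week, 3 irradiated glands after 1 week and 3 irradiated glands after 4 weeks. The heterozygous groups held 3 sham glands, 2 irradiated glands after 1 week and 3 irradiated glands after 4 weeks. No sham gland was taken at 4 weeks, so the time after exposure and the added age cannot be told apart in a comparison of 4 weeks with sham. Tumours arose from p53-null mammary fragments placed in inguinal fat pads of BALB/c hosts, cleared of their own epithelium at 3 weeks of age, and hosts were irradiated or not 3 days before transplantation. The tumour groups held 9 tumours from wild-type sham hosts, 23 from wild-type irradiated hosts, 6 from Tgfb1 heterozygous sham hosts and 10 from heterozygous irradiated hosts. The tumour cells thus carry the p53 deletion in every group, while the Tgfb1 genotype is that of the host, and the RNA of a whole tumour also holds host cells. The labels used here do not say whether gland replicates are separate animals, so p-values measure the spread between these arrays, which may be partly technical.

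Some arrays stood apart before any comparison. In 6 of the 17 glands the mean of the skeletal muscle markers lay more than 2 log2 units above the gland median, at 6.89 to 11.08 against 4.09 to 6.73 in the other 11. These muscle-rich glands were 2 wild-type sham glands, 1 gland of each wild-type irradiated group, 1 heterozygous sham gland and 1 heterozygous gland at 1 week. In 11 of the 48 tumours the mean of the luminal epithelial markers was 6.90 to 10.40, against 11.46 to 12.75 in the other 37, and the limit of 11 between them was set after the values were seen. These luminal-low tumours numbered 2, 5, 2 and 2 in the 4 tumour groups in the order given above. In 1 tumour placed with the wild-type irradiated hosts by its title, other labels name a sham host. The glands held both fat and epithelium, with group means of 11.65 to 11.94 for white adipocyte markers and 10.52 to 10.85 for luminal markers. Array medians were close within each tissue, and arrays of a group correlated at 0.976 to 0.994 in glands and 0.899 to 0.991 in tumours.

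Within the 37 tumours with high luminal markers, 8 of 33 other members tested rose and fell together with Pgk1, which encodes phosphoglycerate kinase, the first energy-yielding enzyme of glycolysis. A limma slope on Pgk1, fitted with the 4 group means in the model and adjusted over all 10915 other genes, passed 0.05 in the positive direction for 14 genes, which is 0.128% of the genes tested. The split by luminal markers and this fit were chosen after the data were seen. The 8 members covered several roles. Egln1, an oxygen-dependent prolyl hydroxylase, had a slope of 0.94 log2 units per log2 unit of Pgk1 (SE 0.20, limma adjusted p = 0.0387). The glucose transporter gene Slc2a1 had a slope of 0.94 (SE 0.18, adjusted p = 0.0172) and Hk2, which encodes the hexokinase that traps glucose in the cell, had 1.36 (SE 0.25, adjusted p = 0.0154). Both act at the entry of the pathway.

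Downstream, Pgam1, which encodes phosphoglycerate mutase, had a slope of 0.61 (SE 0.12, limma adjusted p = 0.0172). Ldha, which encodes the lactate dehydrogenase subunit that makes lactate, had the smallest adjusted p among the genes past the threshold, with a slope of 0.72 (SE 0.10, limma adjusted p = 0.000229). Outside glycolysis, the mitophagy gene Bnip3 had a slope of 1.50 (SE 0.29, adjusted p = 0.0172), the hypoxia-induced ankyrin gene Ankrd37 had 1.52 (SE 0.31, adjusted p = 0.0214) and the mitochondrial hypoxia-induced gene Higd1a had 0.80 (SE 0.17, adjusted p = 0.0387). Of 39 other genes of the pathway, chosen by name with earlier results of these data known, 3 passed, and each is a known hypoxia-responsive gene: Fam162a with a slope of 1.19, Mif with 0.90 and Ak4 with 1.69. The remaining 3 positive calls were Mnat1, Psmc1 and Vcpkmt, and none of the 5 genes with a negative slope past the threshold (0.0458% of genes) was a member. When each of the 37 tumours was left out in turn, 4 to 9 members passed. The count was 4 without replicate 14 of the heterozygous irradiated hosts or replicate 6 of the wild-type irradiated hosts, 5 without heterozygous sham replicate 5, wild-type irradiated replicate 4 or wild-type sham replicate 8, and Ldha passed in all 37 fits.

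The Pearson correlation of group-centred values restates the same relation in the same tumours on another scale, so it is not separate support. It was computed within 102 relations for 3 anchor genes. Each permutation p-value that follows comes from 100000 permutations and is unadjusted. Ldha correlated with Pgk1 at Pearson r = 0.80 (permutation p = 1e-05, the smallest these permutations can give) and Spearman rho = 0.71, and at r = 0.71 without the 2 tumours farthest from the Pgk1 median. Bnip3 gave r = 0.66 and rho = 0.71, with r = 0.79 without the 2 farthest tumours, and Ankrd37 gave r = 0.65 and rho = 0.65, with r = 0.68. Slc2a1 had r = 0.67 and rho = 0.71, and Higd1a had r = 0.63 and rho = 0.62. For these genes the relation did not rest on the 2 extreme tumours. In all, 18 of the 33 members had r of at least 0.4 with Pgk1, where 3.48% of all tested genes did, and none had r of -0.4 or below, where 3.11% of genes did. Not every member followed. Aldoc, which encodes the brain-type aldolase, had r = 0.00, and Epas1, which encodes the HIF-2 alpha subunit, had r = -0.36. Pgk1 itself ranged over 12.28 to 13.47 log2 units in these tumours, a narrow span, and no marker list of the 13 compared passed against it. The nearest were macrophage markers (r = -0.38, permutation p = 0.0215, adjusted p = 0.188), B cell and lymph node markers (r = -0.36, permutation p = 0.029, adjusted p = 0.188) and mesenchymal regulators (r = -0.32, permutation p = 0.0523, adjusted p = 0.227), while luminal markers gave r = 0.06 and endothelial markers r = -0.11.

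**Figure D1:**
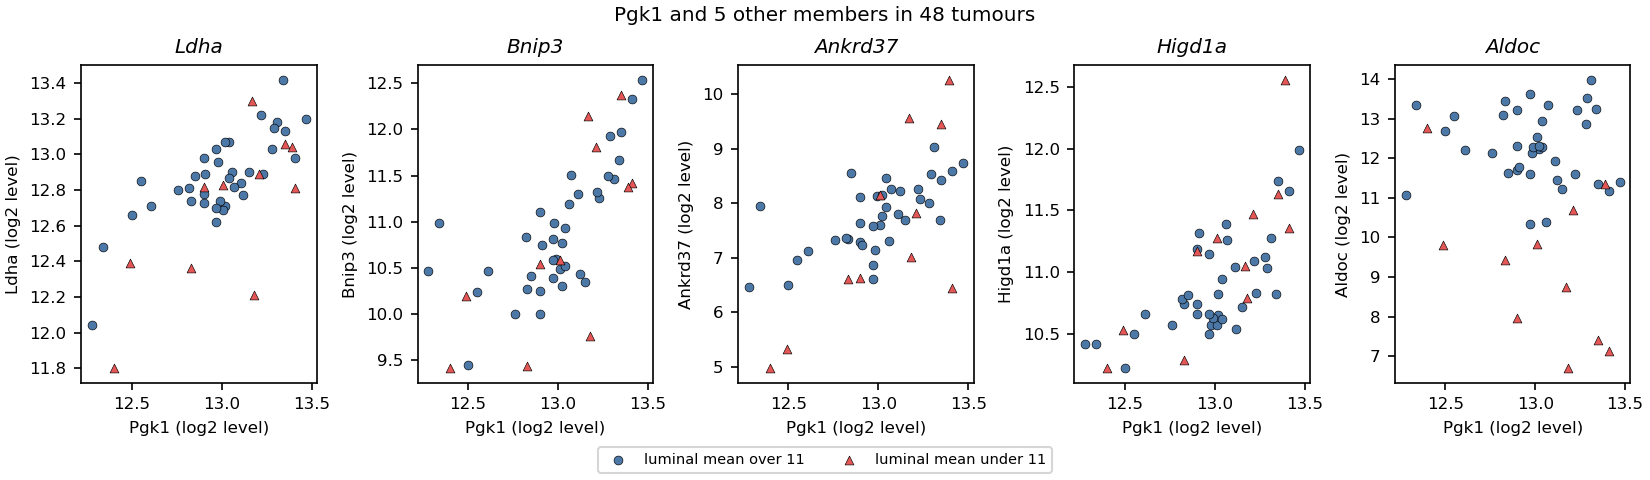
Log2 level of Pgk1 (horizontal axis) against Ldha, Bnip3, Ankrd37, Higd1a and Aldoc (vertical axes, log2) in 48 tumours, 1 panel a gene, with blue circles for the 37 tumours whose luminal marker mean is over 11 and red triangles for the 11 under it. Among the circles Ldha climbs with Pgk1 (r = 0.80 after group means are removed) while Aldoc shows no trend (r = 0.00).

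In the 11 luminal-low tumours no gene passed the same limma slope test against Pgk1. At an unadjusted p under 0.05, 12 of 33 members had a positive slope there, where 4.86% of all genes did, and 23 of 33 did in the 37 other tumours, where 6.68% of genes did. The largest correlations with Pgk1 in those 11 tumours were 0.96 for Tpi1, 0.90 for Ldha and 0.88 for Pgam1. The 2 other anchor genes gave 0 called members in the 37 tumours. For Vegfa, no gene of the array passed, the nearest member being Slc2a1 (limma adjusted p = 0.0686), although 14 of 33 members had r of at least 0.4 with it, where 0.779% of genes did. For Hif1a, which encodes the HIF-1 alpha subunit, 19 genes (0.174%) passed in the positive direction and 11 (0.101%) in the negative. None of them was a member, and Egln1 was nearest with a limma adjusted p of 0.0574.

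The HIF core motif is a short sequence, and the promoters of the genes that followed Pgk1 are printed because it recurs in them. RefSeq (GRCm38.p6) gave the 250 bases before the annotated start for 36 of the 38 genes. Epas1 and Ndrg1 were the other 2. The letters searched were ACGTG and GCGTG on both strands, so that CACGTG counts as 2 matches of ACGTG, 1 on each strand. In the following sequences, 5′ to 3′ on the strand of the gene, capitals mark those letters or their reverse complement.
Pgk1, chrX:106186850-106187099, plus strand: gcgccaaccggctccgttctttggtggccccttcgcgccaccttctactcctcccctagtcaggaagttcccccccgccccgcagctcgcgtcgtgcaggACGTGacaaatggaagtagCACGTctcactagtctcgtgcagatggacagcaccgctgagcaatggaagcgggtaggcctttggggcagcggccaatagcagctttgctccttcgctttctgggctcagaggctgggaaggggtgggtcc
Ldha, chr7:46845554-46845803, plus strand: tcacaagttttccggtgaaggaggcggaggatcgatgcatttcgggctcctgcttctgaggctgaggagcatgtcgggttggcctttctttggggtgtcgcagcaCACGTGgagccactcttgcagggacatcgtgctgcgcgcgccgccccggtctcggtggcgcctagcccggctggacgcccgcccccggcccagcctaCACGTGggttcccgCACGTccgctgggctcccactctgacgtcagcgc
Bnip3, chr7:138909507-138909756, minus strand: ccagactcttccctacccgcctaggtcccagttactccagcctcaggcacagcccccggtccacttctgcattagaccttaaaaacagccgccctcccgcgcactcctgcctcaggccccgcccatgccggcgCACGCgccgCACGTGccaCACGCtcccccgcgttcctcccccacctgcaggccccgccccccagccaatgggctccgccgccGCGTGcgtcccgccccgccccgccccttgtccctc
Ankrd37, chr8:45999851-46000100, minus strand: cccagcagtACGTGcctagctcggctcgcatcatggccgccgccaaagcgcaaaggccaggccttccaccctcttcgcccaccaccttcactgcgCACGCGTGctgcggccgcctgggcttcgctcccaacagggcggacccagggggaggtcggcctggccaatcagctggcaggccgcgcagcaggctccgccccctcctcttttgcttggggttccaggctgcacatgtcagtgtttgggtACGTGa
Higd1a, chr9:121857797-121858046, minus strand: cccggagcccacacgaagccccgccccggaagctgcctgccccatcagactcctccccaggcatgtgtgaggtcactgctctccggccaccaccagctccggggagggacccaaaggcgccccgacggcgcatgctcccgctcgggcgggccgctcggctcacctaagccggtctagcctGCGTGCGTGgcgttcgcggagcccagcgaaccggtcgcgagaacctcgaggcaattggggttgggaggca

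Pgk1 has 2 matches of ACGTG, Ldha 5, Bnip3 2 with 3 of GCGTG, Ankrd37 2 with 2 of GCGTG, and Higd1a only 2 of GCGTG. The other 4 genes that passed with Pgk1 also hold matches of ACGTG in this window, Hk2 with 2 and Egln1, Slc2a1 and Pgam1 with 1 each. Members that did not pass hold it too, among them Hif1a with 3, Slc16a3 and Pfkm with 2 each and Car9 with 1. Among all 36 member promoters, 50.0% hold ACGTG, against 22.0% of the 8849 matched promoters of genes tested in tumours and 16.6% of all 27025 promoters of that length. GCGTG differs less, at 50.0% of member promoters against 46.8% of those of tested genes. The members were chosen by name from the response to low oxygen and glycolysis, so these shares describe that choice. A match is only a run of letters, and these arrays hold no measure of binding. Vegfa has no match of either in this window.

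The median member varied more between tumours of a group than the typical gene. The median SD within groups was 0.575 log2 units over the members tested and 0.397 over all genes tested. Not all members did: Aldoa, Pgk1, Pkm, Pgam1 and Ldha had SDs of 0.293 to 0.310. The 8 members with the largest SD were Aldoc, Eno3, Car12, Pgam2, Car9, Ankrd37, Slc16a3 and Adm. Aldoc spanned 6.70 to 12.75 in the luminal-low tumours with a median of 9.43, and 10.33 to 13.98 in the other 37 with a median of 12.28. Hif1a lay the other way, with a median of 12.10 in luminal-low tumours and 10.99 in the others. Medians were also higher in the luminal-low tumours for Slc16a3, the lactate exporter gene (7.16 against 5.85), and for the collagen prolyl hydroxylase genes P4ha1 (10.05 against 9.39) and P4ha2 (9.62 against 8.73), and lower for Pfkl, a phosphofructokinase gene (9.80 against 10.68), and Hk1 (9.98 against 10.76). Of the other hypoxia-induced genes, Higd1a was higher too (11.17 against 10.78). Lower medians in luminal-low tumours were found for Car9 (6.03 against 6.91), Ankrd37 (7.02 against 7.76), Ero1a (9.49 against 10.21) and Ddit4 (10.89 against 11.46). Adm, Car12, Bnip3 and Ndrg1 were also lower there. Eno2, under the filter, was higher (7.28 against 5.76). Pgk1 (13.17 against 13.01) and Vegfa (9.23 against 9.29) had like medians in both. The share of all genes with such shifts was not computed. In whole-tumour RNA, fewer cells of a type and less RNA per cell cannot be told apart.

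**Figure D2:**
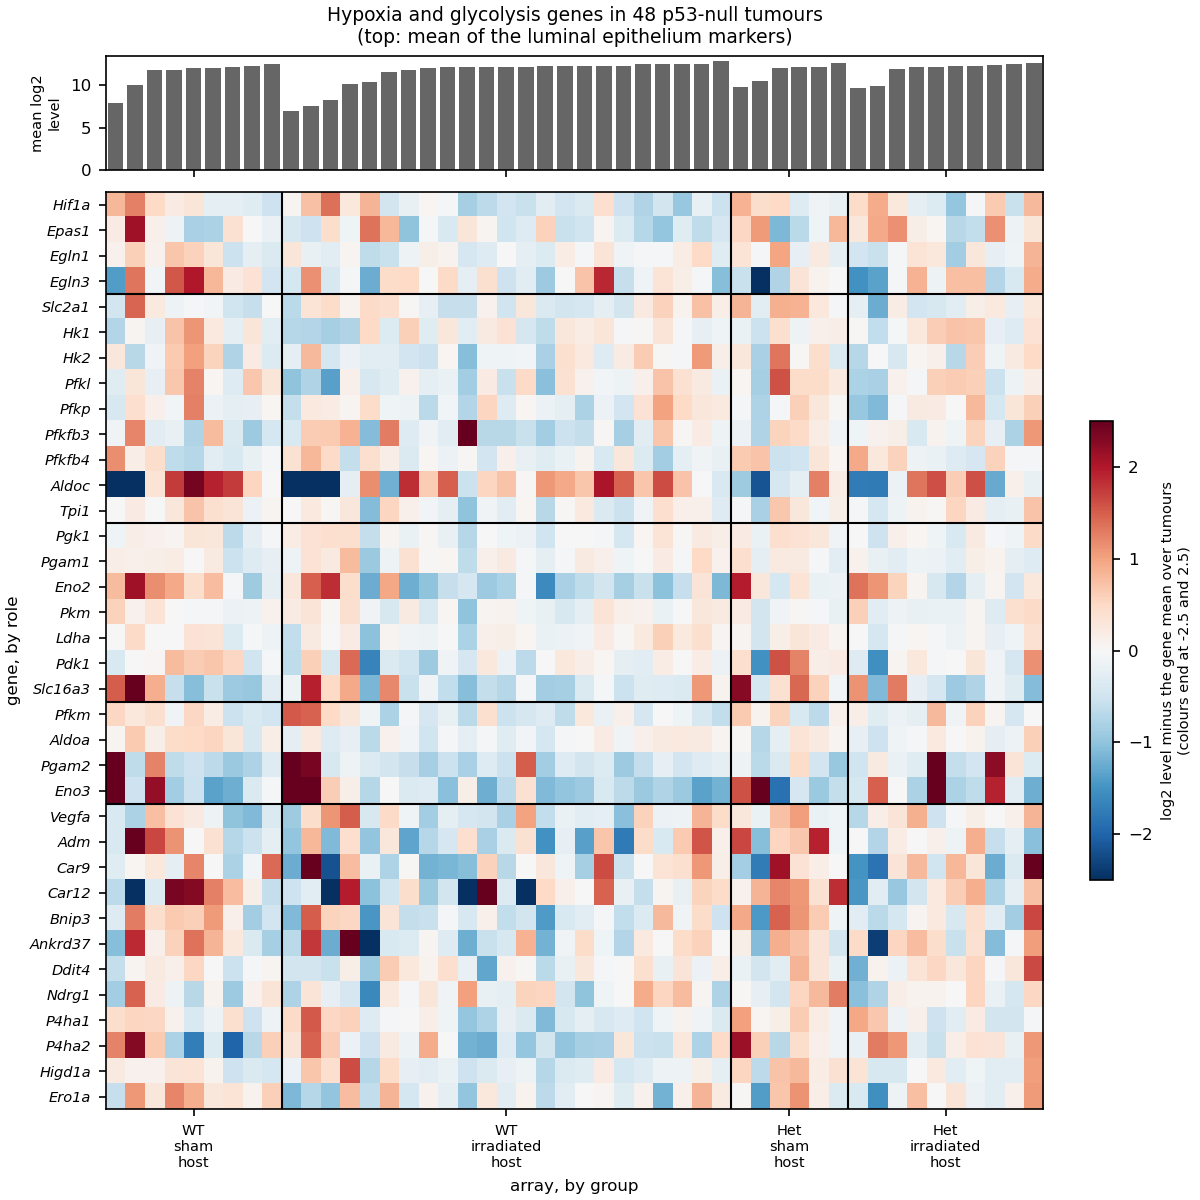
Log2 level of each of 36 members minus its mean over 48 tumours (colour, ends at 2.5 units either side), with tumours in columns ordered within host group by the luminal marker mean drawn as bars on top and members in rows by role. In the 11 tumours with a luminal mean under 11, Aldoc has a median of 9.43 and reaches 12.75 in 1 of them, and Hif1a has a median of 12.10.

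Skeletal muscle genes entered some tumours too. In 7 tumours the muscle marker mean exceeded the tumour median of 5.16 by more than 2 log2 units. Eno3, the muscle enolase gene, read 12.02, 12.08 and 11.36 in 3 of them that were also luminal-low, where the median over all tumours of each host group was 6.98 to 7.30. Pgam2, the muscle phosphoglycerate mutase gene, read 9.62, 8.27 and 9.27 in the same 3 tumours. Eno3 also read 10.14 and 9.23 in heterozygous sham replicates 2 and 6, and 9.14 in heterozygous irradiated replicate 11. These luminal-low tumours had muscle marker means of only 5.77, 5.80 and 5.03. Over the 11 luminal-low tumours Eno3 had a median of 9.14 and a lowest value of 6.93, against a median of 6.98 in the others.

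No single member passed the test for host irradiation in tumours. Of 34 members tested, 0 passed in wild-type hosts and 0 in heterozygous hosts by limma with Benjamini-Hochberg adjustment over 10916 genes, as did 0.0% of all genes in either comparison. At an unadjusted p under 0.05, 5 members were lower and 0 higher in wild-type irradiated hosts, where 6.58% of all genes passed in either direction. In heterozygous hosts 1 member was lower and 0 higher, where 4.04% of genes passed. Most member means lay below those of sham hosts: 30 of 34 were lower in wild-type irradiated hosts, with a median difference of -0.22 log2 units, where 51.1% of all genes were lower with a median of -0.01. In heterozygous hosts 24 of 34 were lower (median -0.11), where 49.6% of genes were lower. Without the luminal-low tumours and the muscle-linked genes, 22 of 31 were lower in wild-type hosts (median -0.16) and 23 of 31 in heterozygous hosts (median -0.19), against 27 and 23 of 31 with all tumours. Members move together within tumours, as the slopes on Pgk1 show, so such a count is not a count of separate events.

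By role, all 4 oxygen sensing genes, 8 of 9 genes of glucose uptake and the preparatory steps, 5 of 6 of the energy-yielding steps and lactate output and 10 of 12 of the other hypoxia-induced genes had lower means in wild-type irradiated hosts. Aldoa, which encodes the aldolase of muscle and of most proliferating cells, came nearest to the threshold. Its lowest, median and highest values were 12.61, 13.31 and 13.66 in 9 tumours of wild-type sham hosts and 12.33, 12.95 and 13.25 in 23 of irradiated hosts, a difference of -0.35 (SE 0.11, limma adjusted p = 0.501). The ranges overlapped over most of their length. The other probe sets of Aldoa gave the same sign, since the 5 differed by -0.12 to -0.41. Ero1a (named Ero1l in older annotation), an oxidase of the endoplasmic reticulum that hypoxia induces, ran from 9.53 through 10.44 to 11.32 in sham hosts and from 8.92 through 9.87 to 10.95 in irradiated hosts (difference -0.66, SE 0.25, limma adjusted p = 0.585).

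Among the preparatory enzymes, Tpi1, the triosephosphate isomerase gene, ran 12.67, 13.02 and 13.53 in sham hosts and 11.72, 12.80 and 13.34 in irradiated hosts (difference -0.32, SE 0.15), and Pfkl ran 10.23, 10.86 and 11.81 against 9.21, 10.43 and 11.27 (difference -0.45, SE 0.22). The secreted vasodilator gene Adm ran 7.67, 8.38 and 11.07 against 6.60, 8.01 and 9.95 (difference -0.71, SE 0.35). Tumours of both groups overlapped for these 3 genes. Of the classic targets, the 95% intervals were -0.25 to 0.21 for Pgk1, -0.33 to 0.15 for Ldha and -0.39 to 0.36 for Slc2a1. Larger shifts of these genes fall outside what the fit allows. The interval of Vegfa was wider, at -0.24 to 0.75, so its difference is imprecise and a rise within that interval is not excluded. Car9, the hypoxia-induced carbonic anhydrase gene, ran 6.09, 6.88 and 8.31 in sham hosts and 4.71, 6.89 and 9.94 in irradiated hosts, with nearly equal medians and a wide interval of -1.13 to 0.64. Hif1a ran 10.76, 11.49 and 12.53 against 10.32, 10.92 and 12.66 (difference -0.38, SE 0.22). Of 39 other pathway genes 0 passed and 25 had lower means, among them the glycogen synthase gene Gys1 (-0.50, SE 0.16) and the HIF-induced repressor gene Bhlhe40 (-0.53, SE 0.18).

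In heterozygous hosts the gene nearest to the threshold was Slc2a1, which ran 10.95, 11.80 and 12.14 in 6 sham hosts and 10.00, 11.01 and 11.51 in 10 irradiated hosts. The difference was -0.62 (SE 0.24, limma adjusted p = 0.999). Slc16a3 ran 5.77, 6.69 and 8.50 in sham hosts and 5.12, 5.86 and 7.51 in irradiated hosts (difference -0.94, SE 0.48), and the carbonic anhydrase gene Car12 ran 9.21, 10.07 and 10.94 against 7.64, 8.86 and 10.00 (difference -1.08, SE 0.66). Adm differed by -0.76 (SE 0.46), from a median of 8.98 to 8.30, and Higd1a by -0.34 (SE 0.24), from a median of 11.40 to 10.75. The groups overlapped for all of them. Of 12 other hypoxia-induced genes 11 had lower means, and so had 5 of 6 of the energy-yielding group, where 49.6% of all genes did. The other lists were mixed. Means were lower for 2 of 4 oxygen sensing genes (median 0.033) and 5 of 9 genes of glucose uptake and the preparatory steps (median -0.001). Of 3 muscle-linked genes 1 was lower. Of 39 other pathway genes 0 passed, with the collagen lysyl hydroxylase gene Plod2 nearest (-0.82, SE 0.29). No member passed the limma test of whether the effect of host irradiation differed between host genotypes. The nearest were Slc2a1 (-0.61, SE 0.31), Aldoa (0.37, SE 0.19) and Egln3, the most strongly hypoxia-induced EGLN gene (1.01, SE 0.56), each given as heterozygous minus wild-type. None passed unadjusted, where 4.75% of genes did, and 18 of 34 were above 0, where 51.5% of genes were.

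No member passed the test for host genotype either. Among sham hosts, Egln3 ran 8.46, 10.22 and 11.87 in wild-type and 7.01, 9.59 and 10.18 in heterozygous hosts (difference -1.11, SE 0.45, limma adjusted p = 0.954), and 20 of 34 members had higher means in heterozygous hosts, where 48.7% of all genes did, and 2 were lower at an unadjusted p under 0.05, where 5.15% of genes passed. The median in heterozygous hosts was lower for Aldoa (13.05 against 13.31) and higher for Slc2a1 (11.80 against 11.18), Vegfa (9.48 against 9.03) and Higd1a (11.40 against 11.04), with overlap in all 4. Among irradiated hosts, 27 of 34 members were higher in heterozygous hosts, where 49.5% of all genes were, with a median difference of 0.09, and 0 passed unadjusted, where 5.33% of genes did. That direction depends on single tumours: of the 31 members that are not muscle-linked, 7 were lower with all tumours (median 0.085), 16 without replicate 14 of the heterozygous irradiated hosts (median -0.029) and 14 without replicate 10 (median 0.038). The number was 12 without their replicate 15, 4 without their replicate 11 and 11 without replicate 7 of the wild-type irradiated hosts. Ddit4, a stress-induced inhibitor of mTOR signalling, ran 10.06, 11.36 and 11.98 in wild-type and 10.15, 11.63 and 13.00 in heterozygous irradiated hosts (difference 0.33, SE 0.19). Epas1 ran 9.17, 9.84 and 11.53 against 9.49, 10.40 and 11.33 (difference 0.44, SE 0.25) and P4ha2 ran 7.75, 8.67 and 10.47 against 8.45, 9.24 and 10.29 (difference 0.53, SE 0.33). Hk1 (0.25) and Pgam1 (-0.17) followed, and the ranges of all 5 genes overlapped. Without luminal-low tumours and muscle-linked genes, 5 of 31 were lower in that comparison, against 7 of 31 with all tumours, and among sham hosts 6 of 31 were lower, against 12 of 31. Of the other pathway genes, Pdk2, a pyruvate dehydrogenase kinase gene, was nearest among sham hosts (-0.70, SE 0.24) and Hif1an, which encodes the asparagine hydroxylase that restrains HIF, among irradiated hosts (-0.34, SE 0.11), and neither passed. These genotype comparisons use the same tumours as the irradiation comparisons, so they are not separate evidence.

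In glands, the muscle-linked isoenzyme genes Pgam2, Eno3 and Pfkm spread most among the members and moved with the muscle markers. Pgam2 read 3.73, 10.34 and 7.45 in the 3 wild-type sham glands, 4.13, 3.99 and 7.69 at 1 week and 3.58, 5.79 and 8.22 at 4 weeks. In heterozygous glands it read 5.77, 3.84 and 4.05 in sham, 4.17 and 6.45 at 1 week and 3.98, 4.23 and 3.93 at 4 weeks. Each value above 5.79 came from a muscle-rich gland. Eno3 was also highest in muscle-rich glands, at 6.32, 11.83 and 9.42 in wild-type sham, 6.95, 6.13 and 9.70 at 1 week and 6.22, 7.80 and 9.65 at 4 weeks. Pfkm, the muscle phosphofructokinase gene, read 7.29, 9.84 and 8.13 in wild-type sham, 7.24, 7.34 and 8.13 at 1 week and 7.37, 7.69 and 8.69 at 4 weeks. Replicate 2 of the sham glands was the highest for all 3 genes, and its muscle marker mean was the highest of the 17 glands at 11.08. Aldoa moved less, at 11.57 to 12.67 in muscle-rich glands and 11.53 to 12.18 in the others. Its SD within groups was 0.28, which members such as Aldoc (0.51) and Hif1a (0.43) exceeded. The SDs within groups were 2.05 for Pgam2, 1.71 for Eno3 and 0.68 for Pfkm, against a median of 0.193 over all genes tested and 0.252 over the members tested.

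Even among the 11 glands that were not muscle-rich, Pgam2 correlated with the muscle marker mean (Pearson r = 0.96, permutation p = 0.00092, adjusted p = 0.0331 over the 36 relations computed, Spearman rho = 0.76, permutation p = 0.00865). It was r = 0.63 without the 2 glands farthest from the median of the markers, so most of its strength rests on those 2. No other member passed there.

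**Figure D3:**
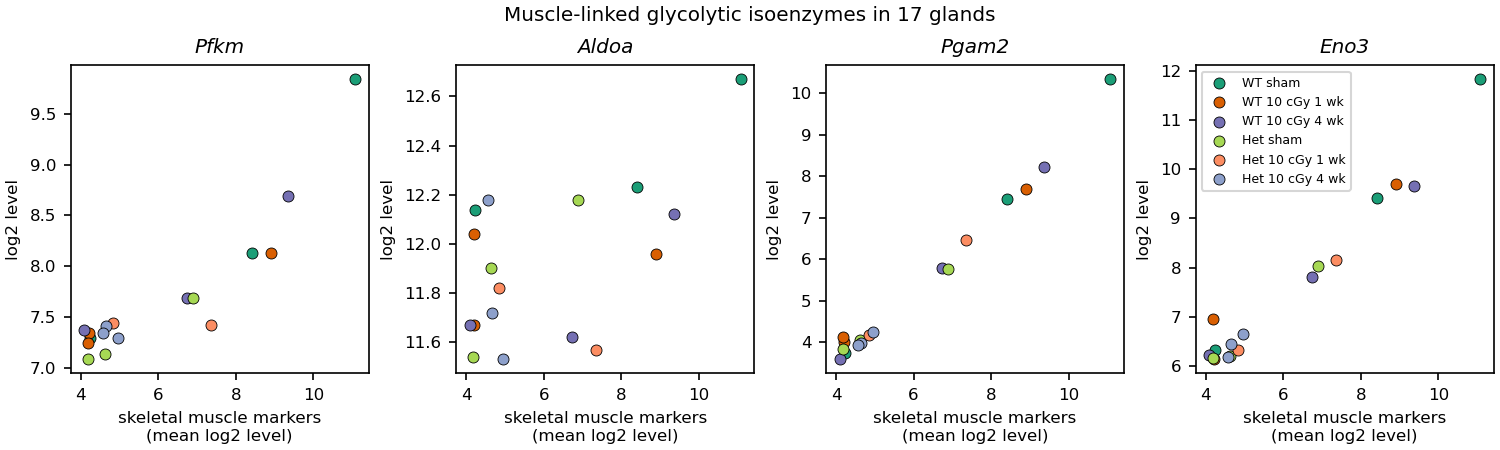
Mean of the skeletal muscle markers (horizontal axis, log2) against Pfkm, Aldoa, Pgam2 and Eno3 (vertical axes, log2) in 17 glands, 1 point a gland coloured by group. Pgam2 reaches 10.34 and Eno3 11.83 in the sham gland with the highest marker mean, 11.08, and both are low where the markers are low.

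The group means of the muscle markers themselves were unequal, at 7.91 ± 3.45 (SD, n = 3) in wild-type sham, 5.77 ± 2.71 (n = 3) at 1 week, 6.73 ± 2.63 (n = 3) at 4 weeks, 5.23 ± 1.45 (n = 3) in heterozygous sham, 6.10 ± 1.77 (n = 2) at 1 week and 4.72 ± 0.20 (n = 3) at 4 weeks. At 1 week all 4 isoenzymes had lower means than in wild-type sham, by -0.46 (SE 0.21) for Aldoa and -0.85 (SE 0.49) for Pfkm, and heterozygous sham lay below wild-type sham by -2.40 (SE 1.23) for Eno3 and -1.12 (SE 0.49) for Pfkm. Without the muscle-rich glands the difference of Pfkm at 1 week was 0.006 (SE 0.164), with 1 sham gland left. None of these passed the limma test.

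**Figure D4:**
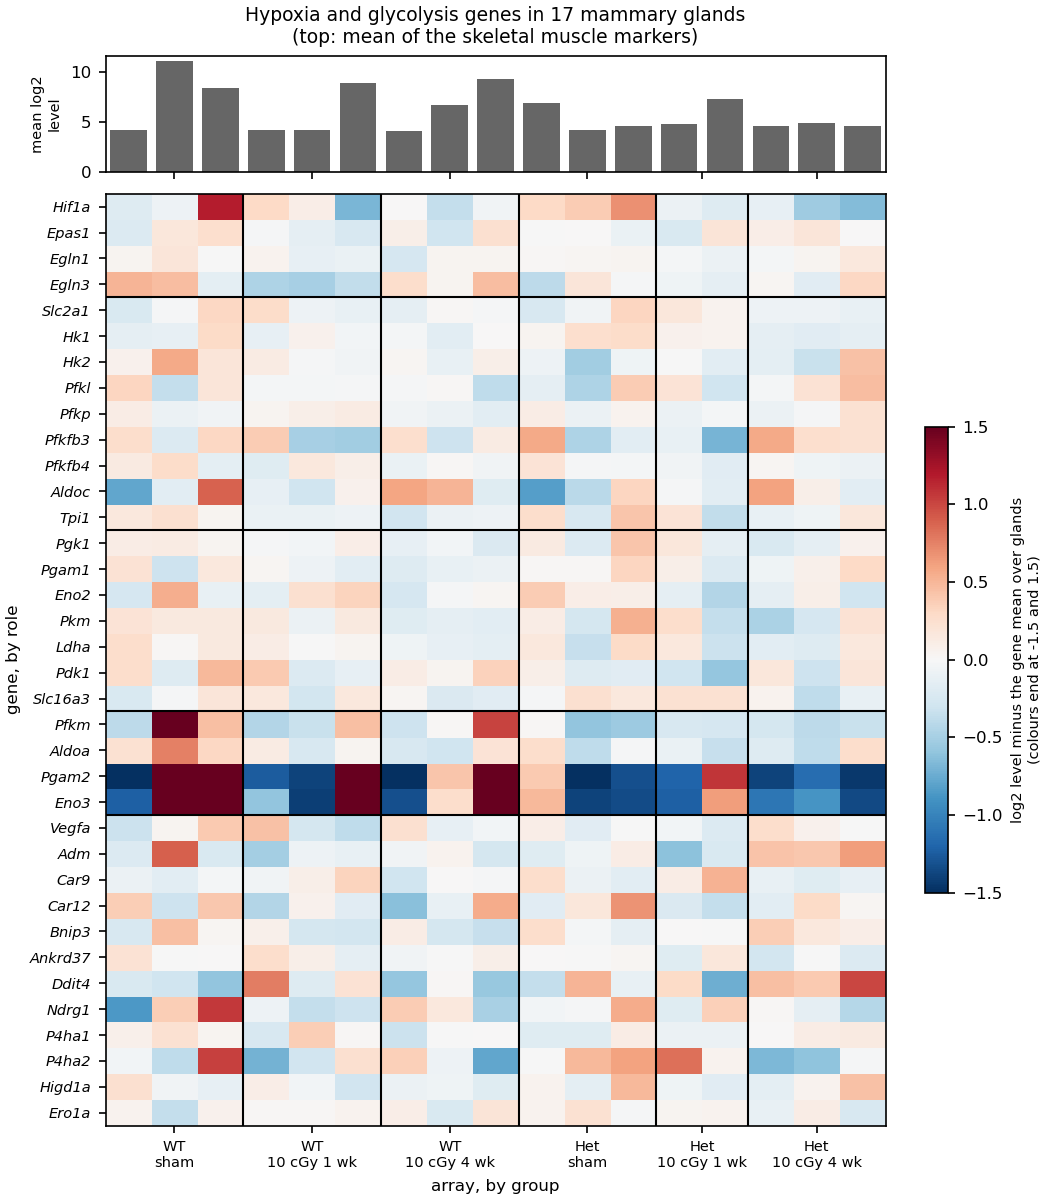
Log2 level of 36 members minus the gene's mean over 17 glands (colour, ends at 1.5 units either side), with glands in columns by group, members in rows by role and the mean of the skeletal muscle markers as bars on top. Pfkm, Pgam2 and Eno3 are high under the tall muscle bars, while most other rows stay pale in every group.

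Radiation of wild-type glands gave no called member. At 1 week 0 of 32 passed limma with Benjamini-Hochberg adjustment, as did 0.0% of all genes. Before adjustment, 2 members were lower and 0 higher at p under 0.05, where 4.64% of genes passed. At 4 weeks the numbers were 0 adjusted (0.0% of genes), and 1 lower and 0 higher unadjusted, where 2.14% of genes passed. Lower means were common, in 28 of 32 members at 1 week (median -0.15) where 57.6% of all genes were lower with a median of -0.03, and in 30 of 32 at 4 weeks (median -0.18) where 43.9% were lower with a median of 0.02. Leaving out the 4 muscle-linked genes left 24 of 28 at 1 week (median -0.11) and 26 of 28 at 4 weeks (median -0.15). With the muscle marker mean as a covariate the counts of these 28 stayed at 24 and 26, and without the muscle-rich glands they were 19 and 18, again with 1 sham gland left. Both comparisons use the same 3 sham glands, so the like direction in both is not separate evidence.

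Egln3 stood nearest to the threshold at 1 week. Its values were 8.04, 7.99 and 7.38 in sham, 7.06, 7.03 and 7.16 at 1 week, and 7.79, 7.57 and 7.99 at 4 weeks. All 3 glands at 1 week lay below all sham and all 4-week glands. Of all genes, 6.42% had such a gap below sham at 1 week. The gap upward from 1 to 4 weeks was seen in 10.6% of all genes and in 1 of 32 members, Egln3. The difference from sham at 1 week was -0.72 (SE 0.19, limma adjusted p = 0.976) and the difference of 4 weeks from 1 week was 0.70 (SE 0.19, limma adjusted p = 0.415), and a second probe set gave -0.55 and 0.80 for the same differences. In heterozygous glands Egln3 read 7.13, 7.71 and 7.51 in sham and 7.46 and 7.39 at 1 week, with no such gap, and the difference between genotypes in the effect at 1 week was 0.69 (SE 0.28), which did not pass. Its partners did less. Hif1a read 10.46, 10.57 and 11.83 in wild-type sham and 10.95, 10.75 and 9.96 at 1 week, and Epas1 read 10.98, 11.35 and 11.44 and then 11.17, 11.05 and 10.94, with overlapping groups in both.

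Ddit4 was the only member at 1 week with every irradiated gland above every sham gland, at 9.08, 8.13 and 8.54 against 8.09, 8.02 and 7.73 (difference 0.63, SE 0.30), where 3.35% of all genes had such a gap upward. At 4 weeks it read 7.74, 8.33 and 7.75. Egln3, Tpi1, Pkm (the pyruvate kinase gene) and Aldoa had the gap downward, 4 of 32 members where 6.42% of all genes did. Adm differed by -0.39 (SE 0.24), with 1 sham gland at 7.77 above the other 2 at 6.67 and 6.65.

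At 4 weeks the glycolytic enzymes made up most of the members with non-overlapping groups. These were Tpi1, Pgk1, Pkm, Ldha, Aldoa and P4ha1, each lower in all 3 irradiated glands than in any sham gland, which is 6 of 32 members where 1.91% of all genes had such a gap downward. Pkm read 9.67, 9.62 and 9.62 in sham and 9.29, 9.33 and 9.31 at 4 weeks (difference -0.33, SE 0.20), and Ldha read 11.54, 11.30 and 11.43 against 11.22, 11.15 and 11.13 (difference -0.26, SE 0.16). Pgk1 read 10.86, 10.87 and 10.79 against 10.63, 10.71 and 10.53 (difference -0.22, SE 0.13). Values within these 2 groups lay close together, but the genes are listed here for lack of overlap, which favours close values. The SE pools the spread over all 6 gland groups. For Pkm that spread was wider in heterozygous glands, with SDs of 0.39 in sham and 0.36 at 4 weeks. Next in the pathway order, Tpi1 read 11.30, 11.38 and 11.19 against 10.86, 11.06 and 11.07 (difference -0.29, SE 0.16), and Aldoa 12.14, 12.67 and 12.23 against 11.67, 11.62 and 12.12 (difference -0.54, SE 0.21, limma adjusted p = 1.0). The 5 probe sets of Aldoa ran from -0.38 to -0.62. At 1 week the wild-type glands read 9.61, 9.38 and 9.61 for Pkm, between the other groups, and 11.39, 11.27 and 11.32 for Ldha, overlapping with sham. P4ha1, a collagen prolyl hydroxylase gene, read 7.85, 8.01 and 7.82 in sham, 7.54, 8.15 and 7.80 at 1 week and 7.46, 7.77 and 7.78 at 4 weeks. In heterozygous glands none of these 6 members had the gap at 4 weeks. There Pkm read 9.58, 9.21 and 10.00 in sham and 8.99, 9.22 and 9.69 at 4 weeks. Ldha read 11.44, 10.93 and 11.57 and then 11.12, 11.09 and 11.44.

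**Figure D5:**
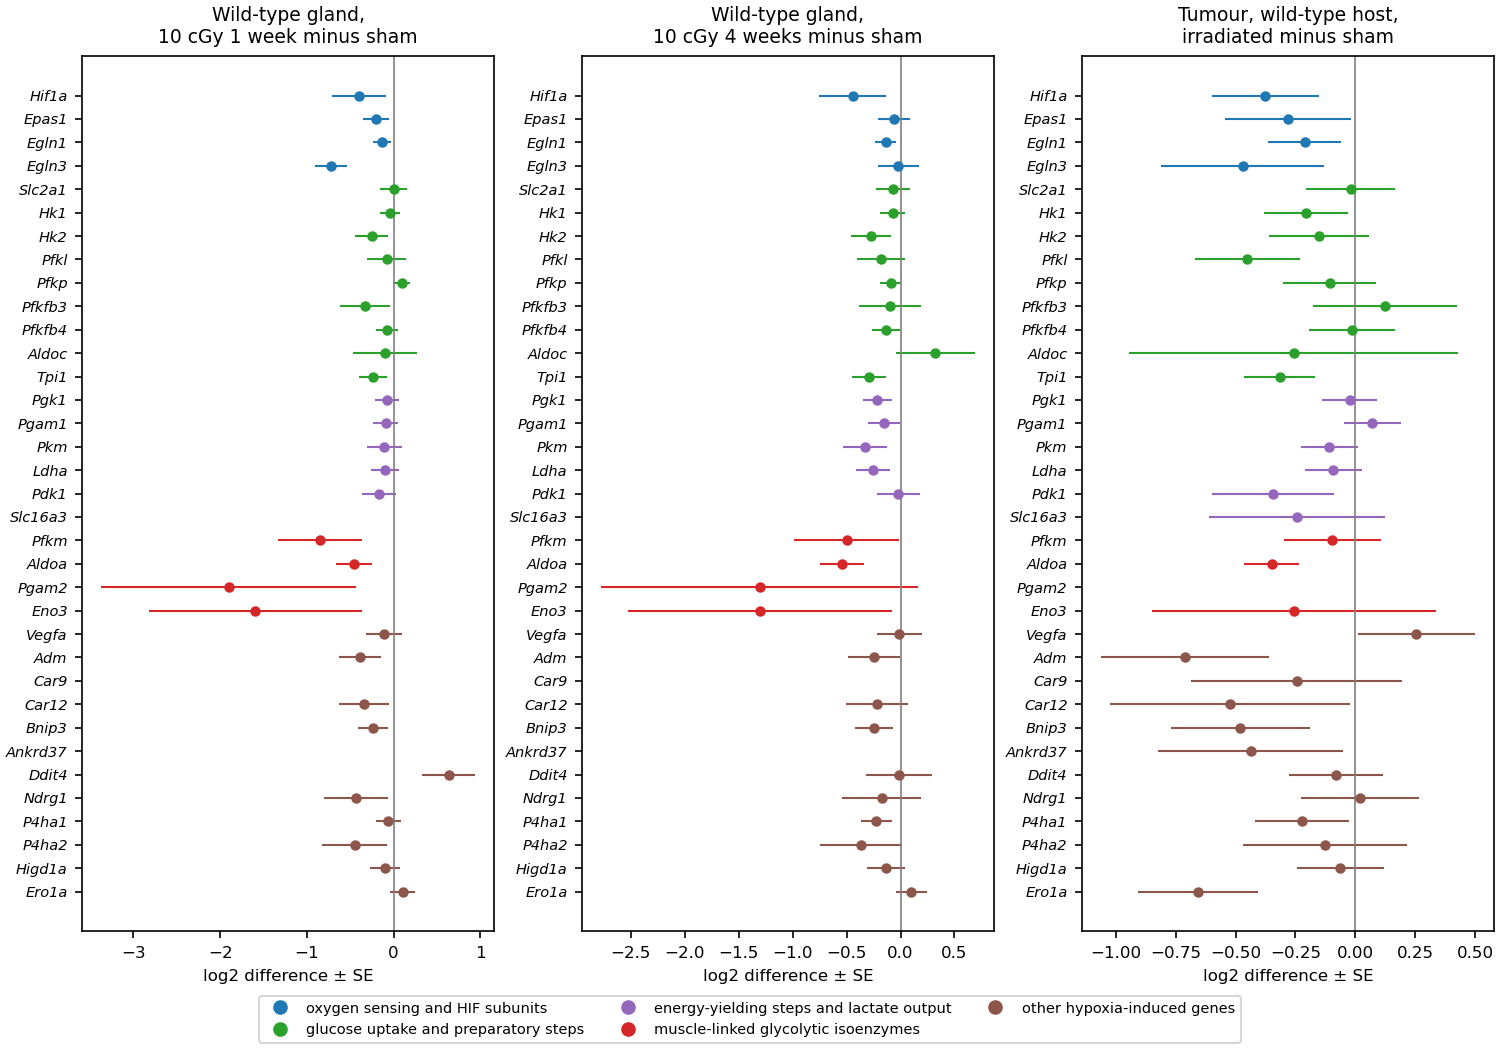
Log2 difference with its SE for each tested member in 3 comparisons, wild-type glands at 1 week minus sham, wild-type glands at 4 weeks minus sham and tumours of irradiated minus sham wild-type hosts, coloured by role. Most points lie left of 0 in each panel, 28 of 32, 30 of 32 and 30 of 34, and none passed the adjusted threshold.

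Between 1 and 4 weeks after radiation in wild-type glands, 19 of 32 members were lower at 4 weeks (median -0.01), where 37.9% of all genes were, and at an unadjusted p under 0.05 only Egln3 passed, upward, where 9.68% of genes did. Pfkp, the platelet-type phosphofructokinase gene, read 8.61, 8.66 and 8.70 at 1 week and 8.52, 8.48 and 8.41 at 4 weeks, a gap without overlap but of only -0.18 (SE 0.10). Pgk1, Pkm and Ldha had the same gap, 4 of 32 members where 3.72% of all genes did. Ddit4 differed by -0.65 (SE 0.30, limma adjusted p = 0.519) and P4ha1 by -0.16 (SE 0.14). Aldoc read 9.54, 9.37 and 9.73 at 1 week and 10.26, 10.17 and 9.48 at 4 weeks (difference 0.42, SE 0.37), against 8.89, 9.51 and 10.55 in sham. Of the other pathway genes, Bhlhe40 (0.59, SE 0.22) and Pdk4, a pyruvate dehydrogenase kinase gene (0.69, SE 0.30), were nearest and did not pass.

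Groups of Slc2a1, Hk2 and Vegfa overlapped between wild-type sham and irradiated glands. Slc2a1 read 8.32, 8.53 and 8.86 in wild-type sham, 8.82, 8.47 and 8.44 at 1 week and 8.41, 8.57 and 8.53 at 4 weeks, and the 95% interval at 4 weeks was -0.40 to 0.26. Hk2 read 8.42, 8.92 and 8.53 in sham, 8.47, 8.33 and 8.30 at 1 week and 8.38, 8.24 and 8.44 at 4 weeks. Vegfa read 7.09, 7.45 and 7.81 in sham, 7.85, 7.15 and 7.03 at 1 week and 7.65, 7.29 and 7.37 at 4 weeks. A second Vegfa probe set differed in sign from the first at 1 week, at 0.10. Car9 stayed between 3.95 and 4.78 in all 17 glands and under the filter. Of 36 other pathway genes 0 passed in either comparison, with 26 lower at 1 week and 20 lower at 4 weeks. Bhlhe40 (-0.57, SE 0.22) and the phosphoglucomutase gene Pgm1 (-0.39, SE 0.18) came first at 1 week, and Pgm1 (-0.43, SE 0.18) and the VEGF receptor gene Flt1 (-0.32, SE 0.14) at 4 weeks.

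In heterozygous glands no member passed either. At 4 weeks 17 of 32 members were lower than in heterozygous sham (median -0.01), where 44.7% of all genes were, and 0 passed limma, where 0.0183% of all genes did. Unadjusted, 1 was higher and 2 lower, where 5.21% of genes passed. Of the 28 that are not muscle-linked 14 were lower, and 9 were without heterozygous sham replicate 3. Hk1 read 8.85, 9.06 and 9.09 in sham and 8.67, 8.64 and 8.67 at 4 weeks, without overlap (difference -0.34, SE 0.11, limma adjusted p = 0.758). Hif1a read 10.95, 11.03 and 11.33 against 10.53, 10.11 and 10.00, also without overlap (difference -0.89, SE 0.31, limma adjusted p = 0.788). P4ha2 read 8.72, 9.21 and 9.33 against 8.05, 8.12 and 8.71, so these 3 members had the gap downward, where 5.12% of all genes did. Adm was the 1 member with the gap upward, at 7.30, 7.28 and 7.50 against 6.69, 6.81 and 6.99 (difference 0.53, SE 0.24, limma adjusted p = 0.954), where 6.67% of all genes had it. In wild-type glands Adm at 4 weeks was 6.82, 6.92 and 6.61, and the difference between genotypes was 0.77 (SE 0.34), which did not pass.

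At 1 week, with 2 heterozygous irradiated glands, 23 of 32 members were lower than in sham (median -0.09), where 67.4% of all genes were, and 0 passed before or after adjustment, where 3.44% of genes passed unadjusted. The groups did not overlap for 6 of them, Hif1a, Egln1, Pfkfb4, Pdk1, Adm and Car12, all lower, where 12.0% of all genes had that gap. Hif1a was 10.56 and 10.45 there (difference -0.60, SE 0.35), and Pdk1, which encodes the kinase that keeps pyruvate out of the mitochondrial cycle, was 7.43 and 7.15 against 7.82, 7.54 and 7.56 (difference -0.35, SE 0.22). Car12 differed by -0.51 (SE 0.32), Adm by -0.38 (SE 0.27) and Higd1a by -0.25 (SE 0.19). Plod2 was nearest among the other pathway genes (-0.63, SE 0.23) and at 4 weeks it was the lipase inhibitor gene Angptl4 (0.43, SE 0.11), neither passing.

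Between genotypes in sham glands, 22 of 32 members had lower means in heterozygous glands, where 52.9% of all genes did, and 3 were lower at an unadjusted p under 0.05, where 3.36% of genes passed. Of the 28 that are not muscle-linked, 18 were lower, and 10 were without replicate 2 of the heterozygous sham glands. Hk2 read 8.42, 8.92 and 8.53 in wild-type and 8.27, 7.83 and 8.29 in heterozygous glands, the only member without overlap, where 4.33% of all genes had the gap downward (difference -0.49, SE 0.19, limma adjusted p = 0.968). Averaged over sham, 1 week and 4 weeks, Pdk1 was nearest to the threshold (-0.29, SE 0.12, limma adjusted p = 0.364), with 0 of 32 members passing against 0.0458% of all genes, and with 1 passing unadjusted where 12.0% of genes did. In that average 15 of 32 members were lower, where 57.8% of genes were, and of the 28 that are not muscle-linked 11 were lower, or 7 without either wild-type sham replicate 3 or heterozygous sham replicate 2. Pdk1 read 7.99, 7.54 and 8.21 in wild-type sham, 8.12, 7.52 and 7.60 at 1 week and 7.84, 7.77 and 8.07 at 4 weeks. In heterozygous glands it read 7.82, 7.54 and 7.56 in sham, 7.43 and 7.15 at 1 week and 7.90, 7.42 and 7.91 at 4 weeks. The genotypes overlapped in sham and at 4 weeks. At 1 week both heterozygous glands lay below every wild-type gland. The share of all genes with such a gap was not computed, so the gap is not read as a result. Against the 3 heterozygous sham glands, the same 2 glands lay below all of them in 12.0% of genes. Pfkm (-0.61, SE 0.29) and Eno3 (-1.41, SE 0.74) were also lower on average in heterozygous glands, which included 2 of the 6 muscle-rich glands. Whether the muscle content explains these differences was not tested. Of the other pathway genes, Lox, a HIF-induced collagen cross-linking enzyme gene, had the smallest adjusted p (-0.68, SE 0.19, limma adjusted p = 0.239). In the limma test of whether the effect of radiation differed between genotypes, 0 members passed at 1 week or 4 weeks. Unadjusted, 1 passed at 1 week, where 2.83% of genes did, and 1 at 4 weeks, where 1.73% did. At 1 week 14 of 32 differences were below 0, where 55.8% of all genes were, and at 4 weeks 25 of 32 were above 0, where 50.7% were. Of the 28 that are not muscle-linked, 7 were below 0 at 4 weeks, against 11 without replicate 2 of the heterozygous sham glands and 4 without replicate 3. At 1 week 14 of these 28 were below 0, and 8 without that replicate 3.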

How the data were processed

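Total RNA of 17 glands and 48 tumours was labelled and hybridised to Affymetrix arrays. RMA is named per the submitters' processing notes. Neither its version is given there, nor whether glands and tumours were normalized as 1 set. The authors deposited linear intensity values for glands, per the values in the file, to which log2 was applied here, and log2 values for tumours, used as deposited. The tissues were kept apart. Of 45101 probe sets, 34945 that the platform annotation assigns to 1 gene were used, 932 name several genes and 9211 none, and 13 control probe sets were left out. Each gene took its probe set with the highest mean, and genes dimmer than the 40th percentile of the gene means in a tissue were left out of the tests (5.33 log2 units in glands, 6.19 in tumours). No array column was without a sample.

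Groups were compared with limma 3.58.1 in R 4.3.3 (lmFit on group means over all groups of a tissue, eBayes with trend), with Benjamini-Hochberg adjustment over 10916 genes and a threshold of 0.05. The fits were tested on simulated data. Correlations used group-centred values and 100000 permutations (scipy 1.17.1). Markers of other cell types were averaged per array. In every comparison the members past the threshold were to be named, and otherwise the 5 with the smallest unadjusted p. Of other pathway genes the first 1 or 2 are named. The members, lists and tests were chosen with earlier results of these data known. Array data hold no read depth, so the number of arrays limits the precision, most in the gland group of 2. Same-numbered glands were not treated as pairs. Deviations of same-numbered heterozygous sham and 4-week glands correlated at 0.111 to 0.330 in all 3 pairs, against -0.333 to 0.092 for unlike numbers. For wild-type sham and 4-week glands these ranges were 0.070 to 0.300 and -0.398 to 0.057. A replicate block gave 0 called members in both comparisons. The main fit called 0 as well, so the block could only have added calls.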

Additional observations from a re-analysis of the deposited data

Results flagged for a closer look

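Each of the following tumours stood far from the others of its host group in 1 member, as the highest or lowest of 6 to 10 values. This held for 10 of the 108 gene and group pairs looked at, in 7 tumours, and chance alone flags about 1 in 20.

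In wild-type sham hosts, replicate 5 read 12.30 for Epas1, with the next tumour at 10.56, and 12.70 for Slc2a1, with the next at 11.49, and its luminal marker mean was 9.99. Replicate 8 read 11.58 for Pfkp, with the next at 10.74. Replicate 6 read 9.27 for Pgam2, with the next at 7.14, beside a muscle marker mean of 9.82.

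In heterozygous sham hosts, replicate 2 was lowest for Egln3 at 7.01, with the next at 9.11, and for Ldha at 12.36, with the next at 12.89, and its luminal marker mean was 10.40. Replicate 6 read 8.14 for Eno2, with the next at 6.52.

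In heterozygous irradiated hosts, replicate 11 was lowest for Slc2a1 at 10.00, with the next at 10.76. Replicate 14 was highest for both Bnip3, at 12.54 with the next at 11.26, and Higd1a, at 11.99 with the next at 11.28. Its luminal marker mean was 12.59, and without it 4 members instead of 8 passed against Pgk1.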

How the results depend on the processing

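No member passed the adjusted threshold of any of the 14 group comparisons under any alternative run (another filter, quantile normalization again, no trend, an added pseudocount, mean of probe sets, make-up covariates, the replicate block, and each array left out in turn). The replicate block gave 0 called members in each, with medians of -0.145 at 4 weeks in wild-type glands and -0.172 in tumours of wild-type hosts, and changed no call. Pfkm at 1 week in wild-type glands turned sign without the muscle-rich glands, to 0.006 (SE 0.164). With 1 array left out, the median difference of members that are not muscle-linked ran from -0.189 to -0.098 at 1 week and -0.188 to -0.112 at 4 weeks in wild-type glands, and from -0.25 to -0.124 in tumours of wild-type hosts. It took both signs for heterozygous minus wild-type sham glands (-0.101 to 0.075), for the difference between genotypes at 1 week (-0.145 to 0.104), for 4 weeks minus 1 week (-0.058 to 0.028), for heterozygous glands at 4 weeks (-0.074 to 0.063) and for the averaged genotype difference (-0.017 to 0.041). In tumours it took both signs for heterozygous minus wild-type sham hosts (-0.04 to 0.186) and irradiated hosts (-0.029 to 0.151) and for their difference (-0.12 to 0.142). Of 102 relations of members with Vegfa, Pgk1 and Hif1a, 49 passed over all 48 tumours, a count that mixes both luminal classes. It was 36 in the 37 luminal-high tumours and 11 in the luminal-low tumours. By limma slopes adjusted over all genes, it was 8 in luminal-high and 0 in luminal-low tumours. These splits were chosen after seeing the data. Muscle content of glands and luminal content of tumours varied within groups, and 2 to 3 glands a group limit the precision.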
